A study of Mus musculus with 3 samples.

Results

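Cathepsins are proteases of endosomes and lysosomes. The 8 cathepsin genes described here, Ctss, Ctsh, Ctsm, Ctsz, Ctse, Ctsl, Ctsd and Ctsb, were chosen by their symbols with ratios of the same arrays already known, out of 6795 genes named by probes with a single symbol. Because that choice was made on this contrast, their ratios are given as a description, without a test. Each of the 8 had 1 probe.

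Mouse thymocyte RNA was compared on 3 spotted 2-colour arrays of one print. On each array, RNA from CD69hi thymocytes purified from wild-type B6 mice was set against RNA from Zap70-/- thymocytes that had not been separated. On arrays 1 and 2 the CD69hi sample was labelled with Cy3, while array 3 had the dyes swapped. CD69 is a surface protein raised by T cell receptor (TCR) signals, among them that of positive selection, and Zap70 is a kinase that the TCR needs to signal. The comparison thus sets thymocytes purified by a mark of TCR signalling against thymocytes without this kinase. The titles call the second RNA CD69lo. The sources used here give no age, sex, number of mice or pooling, and genotype and purification differ together, so their parts cannot be told apart. Nothing in the labels ties an array to a mouse or culture of its own, so the p-values cover the spread among these hybridisations alone, and that spread may be technical.

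All values are log2 ratios of CD69hi over Zap70-/-, with 3 arrays as the limit of their precision. A value above 0 means a higher level in CD69hi RNA. This direction is only likely, since the submitters do not state it. It was set by reading the deposited values as Cy5 over Cy3, which puts the recombinase gene Rag1 of immature thymocytes lower in CD69hi RNA (-1.19 ± 0.36, SD, n = 3). Read the other way, each ratio below changes sign. Before turning, the array 3 values correlated across probes with those of arrays 1 and 2 at r = -0.25 and -0.40. Arrays 1 and 2, which share a dye orientation, correlated at r = 0.61, a closer relation than either had with array 3. These values describe the arrays, since genes are not independent replicates. Over all genes the turned ratios had medians of -0.01, -0.01 and -0.004 on the 3 arrays, and the median SD between arrays was 0.26. Cd69 and Zap70 themselves were not analysed here.

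Most cathepsins are cysteine proteases of the papain family, while cathepsins D and E are aspartic proteases. In antigen-presenting cells they cut proteins into peptides and degrade the invariant chain that blocks the groove of MHC class II. In the mouse, cathepsin S carries out the late steps of invariant chain degradation in dendritic cells and B cells, and cathepsin L does so in cortical thymic epithelium, where it is needed for normal selection of CD4+ T cells.

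RefSeq promoter entries (GRCm38.p6) were found for 5 of the 8 genes, Ctss, Ctsm, Ctsz, Ctsl and Ctsd. The 250 bases before the start site of the entry are shown for Ctss and Ctsl, which lay at opposite ends of the ratios. They are also shown for Ctsd, a lysosomal gene with a small ratio. Each reads 5′ to 3′ on the strand of the gene. They lie at chr3:95526536-95526785 on the plus strand, chr13:64370521-64370770 on the minus strand and chr7:142387828-142388077 on the minus strand. Capitals mark matches, on either strand, to the E-box CACGTG (the core of the site bound by the lysosomal regulator TFEB), the GC box GGGCGG, the PU.1 core GAGGAA, the core GAAANNGAA of the interferon response element and the TATA box TATAAA.
Ctss: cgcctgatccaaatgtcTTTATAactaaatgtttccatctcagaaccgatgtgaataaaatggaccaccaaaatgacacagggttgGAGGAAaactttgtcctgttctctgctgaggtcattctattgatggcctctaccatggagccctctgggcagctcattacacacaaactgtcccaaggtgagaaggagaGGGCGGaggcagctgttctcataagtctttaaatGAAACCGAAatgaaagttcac
Ctsl: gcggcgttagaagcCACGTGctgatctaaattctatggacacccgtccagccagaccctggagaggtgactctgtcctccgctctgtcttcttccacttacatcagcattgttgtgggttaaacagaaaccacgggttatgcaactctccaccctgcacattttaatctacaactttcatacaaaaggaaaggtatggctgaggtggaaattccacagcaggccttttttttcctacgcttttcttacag
Ctsd: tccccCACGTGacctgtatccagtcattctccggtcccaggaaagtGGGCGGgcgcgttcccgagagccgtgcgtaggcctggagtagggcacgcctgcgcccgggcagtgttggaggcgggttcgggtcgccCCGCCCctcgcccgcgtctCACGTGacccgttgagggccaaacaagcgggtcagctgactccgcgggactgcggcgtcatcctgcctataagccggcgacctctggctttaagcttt

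The Ctss window held 1 interferon response core, 21 to 13 bases before the start, which 7.13% of 32851 promoter windows of this length hold. It also held 1 GC box (32.7% of windows), 1 PU.1 core (23.3%) and 1 match to the TATA letters (12.4%). The Ctsl window held 1 E-box and the Ctsd window 2, against 6.02% of windows with at least 1. The Ctsd window also held 2 GC boxes, as did that of Ctsz, where they overlapped. The Ctsm window held 4 TATA matches, in overlapping pairs. No match crossed another motif in the 3 windows shown. A match describes letters only, and whether these cells use these start sites was not tested. The Ctsl window ends in a stretch rich in T and C followed by CAG, letters that also end introns. Whether this window is promoter or intron was not tested, and its E-box is uncertain for that reason.

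Ctss and Ctsh were the cathepsins with the highest ratios. Ctss, the invariant chain protease, had ratios of 2.85, 3.23 and 2.41 on arrays 1, 2 and 3. This was a mean of 2.83 ± 0.41 (SD, n = 3), 7.12-fold higher in CD69hi RNA, and placed Ctss 21st from the top of 6795 genes. Ctsh encodes a cysteine protease that trims proteins from the amino end. Its ratios were 1.93, 2.46 and 1.88, with a mean of 2.09 ± 0.32 (SD, n = 3), or 4.26-fold higher in CD69hi RNA. Ctss lay above Ctsh on all 3 arrays, by 0.74 ± 0.20 (SD, n = 3), although the ranges of both genes over the arrays overlapped.

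**Figure D1:**
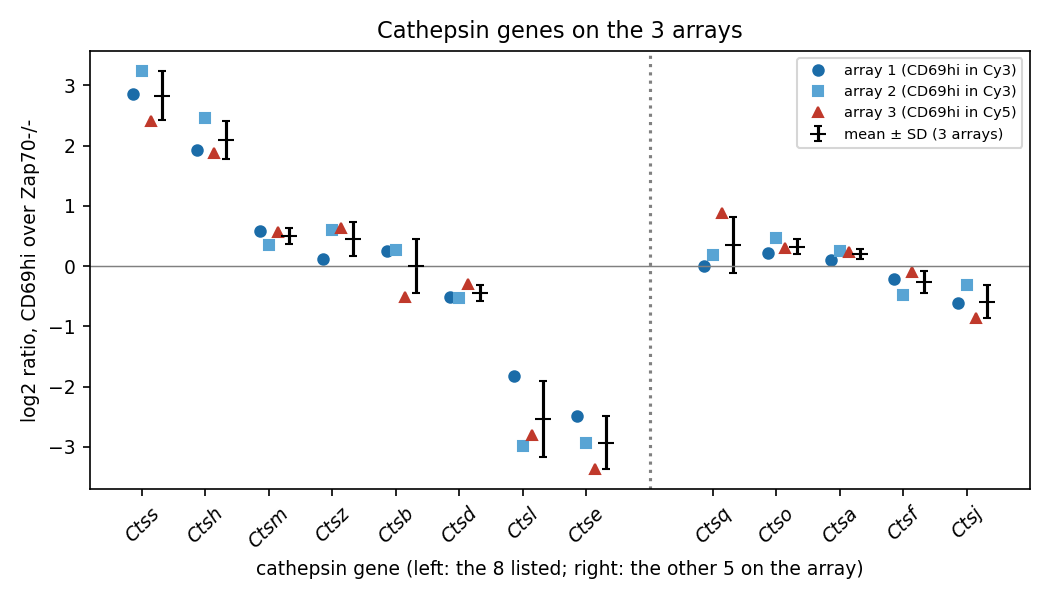
Log2 ratio of CD69hi over Zap70-/- (vertical axis) for the 8 listed cathepsins and the other 5 on the array, with 1 symbol per array and the mean ± SD over 3 arrays as a bar. Ctss and Ctsh stand above 1 and Ctsl and Ctse below -1 on every array, and the other listed genes lie within 1 of 0.

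Ctse and Ctsl lay at the other end. Ctse, an aspartic protease of the endosomes of immune and epithelial cells, had ratios of -2.49, -2.94 and -3.37, with a mean of -2.94 ± 0.44 (SD, n = 3). It was 7.65-fold lower in CD69hi RNA and 4th from the bottom of 6795 genes. Ctsl, a cysteine protease, had ratios of -1.82, -2.99 and -2.80 (mean -2.54 ± 0.63, SD, n = 3), or 5.81-fold lower. Its array 1 value lay apart from the other 2, and it ranked 88th from the bottom on array 1, against 16th and 19th on arrays 2 and 3. Ctse lay below Ctsl on arrays 1 and 3 and above it on array 2, so their order was not settled beyond the spread. RNA from mixed cells cannot show whether a low ratio reflects fewer cells that hold the transcript or less transcript per cell.

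The other 4 genes differed less than 2-fold on every array, as did 82.5% of all 8905 features. Ctsm, a cathepsin expressed mainly in mouse placenta, had ratios of 0.58, 0.36 and 0.56 (mean 0.50 ± 0.12, SD, n = 3). Ctsz, a carboxypeptidase, had 0.12, 0.61 and 0.63 (0.45 ± 0.29). Ctsd, the main aspartic protease of lysosomes, had -0.52, -0.53 and -0.30 (-0.45 ± 0.13), a 1.36-fold lower level in CD69hi RNA. All 3 kept one sign on every array. Ctsb, a cysteine protease that also removes dipeptides from the carboxyl end, did not. Its ratios were 0.25, 0.27 and -0.51, with a mean of 0.004 ± 0.44 (SD, n = 3).

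Of the 8 genes, 4 lay above 0 and 3 below 0 on every array. The choice of members used this contrast, so nothing is read from these counts. Over all features, 24.3% lay above 0 on every array, 22.7% below and 47% on one side. At least 2-fold higher on every array were 2 of the 8, against 1.89% of all features. At least 2-fold lower were 2, against 0.955%. The median of the 8 ratios was 0.23, beside 0.01 over all features, and the means spanned 5.77 on the log2 scale.

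In order of their mean ratios the genes ran Ctss, Ctsh, Ctsm, Ctsz, Ctsb, Ctsd, Ctsl and Ctse. There were 2 gaps in this order, across which the array ranges of the neighbours did not overlap. Ctsh exceeded Ctsm by 1.59 ± 0.44 (SD, n = 3) and Ctsd exceeded Ctsl by 2.09 ± 0.68 (SD, n = 3), each in the same order on 3 of 3 arrays. Ctsm and Ctsz differed by 0.05 ± 0.37 (SD, n = 3), less than their spread. Ctsz and Ctsb (0.45 ± 0.64) and Ctsb and Ctsd (0.45 ± 0.57) kept their order on 2 of 3 arrays.

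The dye orientation left the 4 large ratios on their side of 0. Ctss averaged 3.04 on the arrays with CD69hi RNA in Cy3 and stood at 2.41 with it in Cy5. The Cy3 and Cy5 values were 2.20 and 1.88 for Ctsh, -2.41 and -2.80 for Ctsl, and -2.72 and -3.37 for Ctse. With both orientations weighted equally the means were 2.73, 2.04, -2.60 and -3.04. Ctsb was the member whose sign went with the dye, at 0.26 in Cy3 and -0.51 in Cy5, a pattern shared by 30.5% of all genes. As deposited, its values were below 0 on all 3 arrays.

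**Figure D2:**
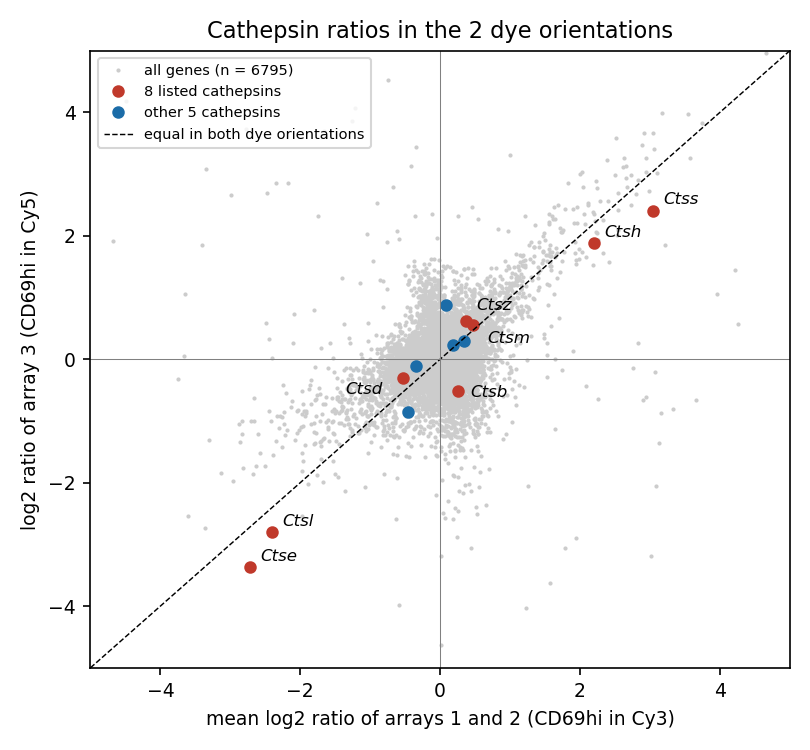
Mean log2 ratio of arrays 1 and 2 (CD69hi RNA in Cy3, horizontal axis) against the log2 ratio of array 3 (CD69hi RNA in Cy5, vertical axis) for all genes in grey, the 8 listed cathepsins in red and the other 5 in blue. Ctss, Ctsh, Ctsl and Ctse lie near the dashed line of equal values and Ctsb lies in the quadrant of opposite signs; 14 genes fall outside the axes, which end at 5.

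Of the other 5 cathepsins on the array, 0 passed an adjusted p of 0.05 (limma, Benjamini-Hochberg over 8905 features), and 1, Ctsj, passed by the unadjusted p (0.05 or less). Over all features 6.94% passed, 4.13% higher and 2.81% lower in CD69hi RNA. Ctsj, a placental cathepsin of the mouse, had a mean of -0.59 ± 0.27 (SD, n = 3, adjusted p = 0.11). Ctsq, another placental cathepsin, had 0.35 ± 0.47 and values of -0.001, 0.18 and 0.88 on the 3 arrays. The carboxypeptidase Ctsa (0.20 ± 0.08) and the papain-like genes Ctso (0.32 ± 0.13) and Ctsf (-0.26 ± 0.19) kept one sign on every array. Ctsj did so too, as did 47% of all features. None of the 5 was near the 4 large ratios. A spotted probe may pick up RNA of a related gene, and ratios of close relatives such as Ctsm, Ctsj and Ctsq are uncertain for that reason.

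From a list of cathepsin inhibitors and their relatives, 1 of 8 measured rose in CD69hi RNA and 0 fell, against 4.13% and 2.81% of all features. By the unadjusted p, 3 were higher and 0 lower. Not every gene of this list is known to inhibit a cathepsin. The 8 had a median of 0.29. The riser was Cst3, which encodes the secreted cysteine protease inhibitor cystatin C. Its ratios were 0.82, 1.07 and 1.16, with a mean of 1.02 ± 0.18 (SD, n = 3, adjusted p = 0.029). Leaving out array 1 or array 2 ended this call (adjusted p = 0.089 and 0.19), and the count was then 0.

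Of 34 other lysosomal hydrolase and membrane genes, 3 rose (8.82%, against 4.13% of all features) and 1 fell (2.94%, against 2.81%). By the unadjusted p, 11 were higher and 2 lower, and the median ratio was 0.09. The asparaginyl protease gene Lgmn, whose product processes several cathepsins, rose 3.09-fold, at 1.17, 1.98 and 1.73 (mean 1.63 ± 0.41, SD, n = 3, adjusted p = 0.023). Hexa, a subunit of β-hexosaminidase (0.89 ± 0.20, adjusted p = 0.038), and the progranulin gene Grn (0.86 ± 0.07, adjusted p = 0.032) rose as well. The sialomucin gene Cd164 fell (-0.84 ± 0.10, adjusted p = 0.034). Without array 2 none of the 4 passed (adjusted p from 0.081 to 0.25). Without array 1 Hexa, Grn and Cd164 did not pass (adjusted p from 0.12 to 0.17), and without array 3 Lgmn and Hexa did not (adjusted p = 0.059 and 0.052).

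Of 28 genes of lysosomal sorting and acidification, 0 passed (limma). By the unadjusted p there were 3 on each side, and the median ratio was -0.09. The 2 with the largest moderated t were Ap1b1, an adaptor subunit (0.72 ± 0.17, SD, n = 3, adjusted p = 0.053), and the sorting receptor gene Sorl1 (0.71 ± 0.19, adjusted p = 0.059). Both passed with a dye term (adjusted p = 0.042 and 0.038).

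**Figure D3:**
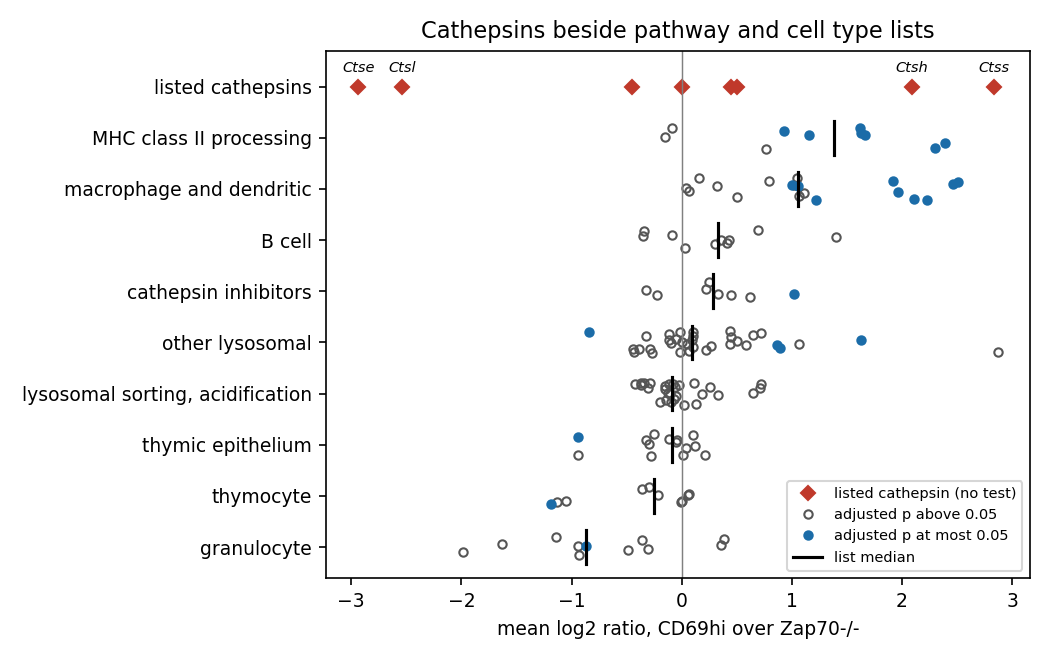
Mean log2 ratio of CD69hi over Zap70-/- (horizontal axis) for the 8 listed cathepsins as diamonds and for each gene of the pathway and cell type lists as circles, filled at an adjusted p of at most 0.05, with a bar at each list median. The MHC class II and macrophage and dendritic lists have medians of 1.39 and 1.05, and the granulocyte list has -0.86.

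Most measured genes of MHC class II processing, where Ctss acts, rose in CD69hi RNA. Of 10 measured, Lgmn among them, 7 rose, against 4.13% of all features, and 0 fell. By the unadjusted p, 8 were higher and 0 lower, and the median ratio was 1.39. This list was chosen with earlier results of these data known, so its count is a description and not support. The class II chain genes H2-Aa (2.39 ± 0.29, SD, n = 3, adjusted p = 0.0089) and H2-Eb1 (2.30 ± 0.14, adjusted p = 0.0068) and the invariant chain gene Cd74 (1.67 ± 0.18, adjusted p = 0.011) led the list. Without array 2, 3 of the 10 rose.

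Part of the list of macrophage and dendritic cell markers rose too. Of 19 measured, 9 rose, against 4.13% of all features, and 0 fell. By the unadjusted p, 15 were higher and 0 lower. The ratios ran from 0.04 to 2.51, and the median was 1.05. This list too was chosen with earlier results known, so its count is a description. Lyz2 (2.51 ± 0.08, SD, n = 3), Apoe (2.46 ± 0.14), C1qa (2.23 ± 0.09) and C1qc (2.11 ± 0.12), transcripts of macrophages, were the highest called. Of 10 B cell markers, 0 passed (limma), with 4 higher by the unadjusted p, ratios from -0.35 to 1.40 and the largest moderated t for Cd79a (1.40 ± 0.70, adjusted p = 0.062) and Fcrla (0.69 ± 0.25, adjusted p = 0.075). The part of these cells in the Ctss and Ctsh ratios was not tested.

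Markers of thymic epithelium, which expresses Ctsl, ran from -0.95 to 0.21 with a median of -0.08. By the unadjusted p, 2 of 14 measured were lower and 0 higher. By the adjusted p, 0 rose and 1 fell, against 2.81% of all features. This was the junction gene Cldn4 (-0.94 ± 0.25, SD, n = 3, adjusted p = 0.039), which did not pass without any one of the arrays (adjusted p from 0.052 to 0.21), and 2 of the 14 were lower with a dye term. The adhesion gene Epcam was lowest, at -1.31, -1.27 and -0.26 (mean -0.95 ± 0.60, SD, n = 3), and did not pass (adjusted p = 0.11). Foxn1, the factor that defines this epithelium, stood at -0.05 ± 0.06 and the cortical protease gene Prss16 at -0.28 ± 0.63, and neither passed (adjusted p = 0.85 and 0.60). The part of epithelial cells in the Ctsl ratio was not tested.

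Granulocyte markers had a median of -0.86, with 1 of 11 lower (S100a8, -0.86 ± 0.27, SD, n = 3, adjusted p = 0.049), against 2.81% of all features, 8 lower by the unadjusted p and ratios from -1.98 to 0.38. S100a8 did not pass without any one of the arrays (adjusted p from 0.052 to 0.35) or with scaling (adjusted p = 0.065), and the number falling was 0 without array 1 or array 2, 4 without array 3, 6 with a dye term and 2 with robust shrinkage. Thymocyte markers had a median of -0.25 and ratios from -1.19 to 0.07. Of 10 measured, 1 was lower (Rag1, whose ratio was also given for the direction, adjusted p = 0.035), against 2.81% of all features. By the unadjusted p, 3 were lower. The Rag1 call ended without array 1 (adjusted p = 0.13) and without array 2 (adjusted p = 0.18), and 2 thymocyte markers were lower without array 3 or with a dye term. The part of granulocytes or of immature thymocytes in the Ctse and Ctsl ratios was not tested.

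The genes most like each of the 4 large members were found by the smallest root mean square difference of the log2 ratios over the 3 arrays. Ctss was nearest to Acvrl1, a receptor of the TGF-β family (difference 0.21), and to the interleukin-7 receptor gene Il7r (0.25). Ctsh was nearest to the hyaluronan receptor gene Cd44 (0.06) and the early response gene Fos (0.11). Among all genes, Ctse and Ctsl were each nearest to the other (0.51), and next came the amino acid transporter gene Slc43a1 for Ctse (0.84) and the matrix gene Hmcn1 for Ctsl (0.74). Slc43a1 and Hmcn1 had their smallest ratios in size on array 3 (-1.98 and -1.73), where Ctse and Ctsl stood at -3.37 and -2.80. Few genes have ratios this low, and the reason for the larger distances was not tested.

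**Figure D4:**
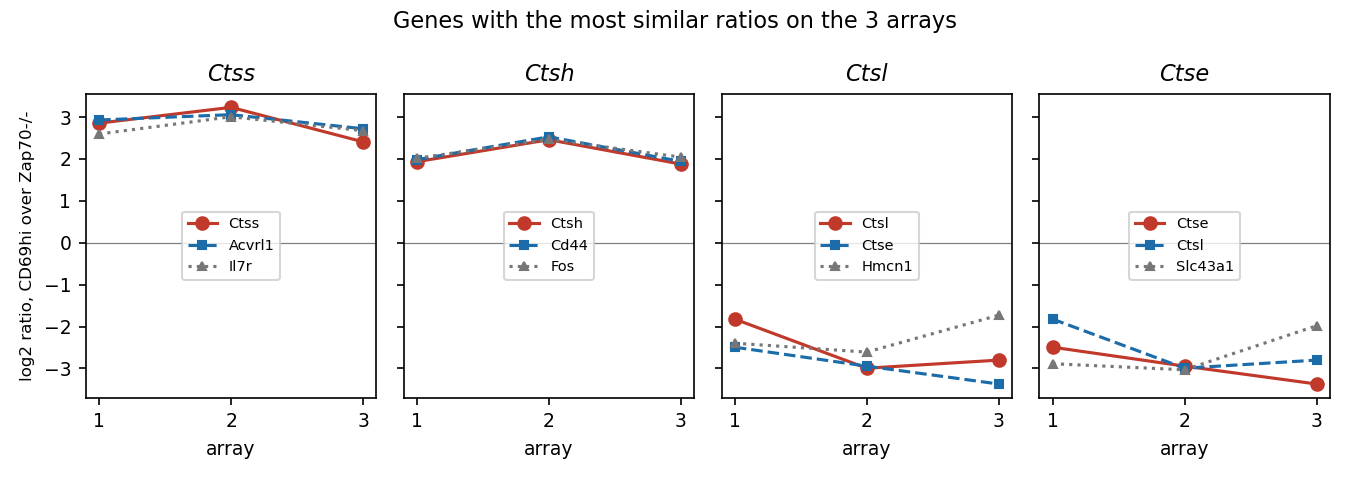
Log2 ratio of CD69hi over Zap70-/- (vertical axis) on arrays 1, 2 and 3 (horizontal axis) for Ctss, Ctsh, Ctsl and Ctse, each with the 2 genes of smallest root mean square difference. The lines of Ctsh, Cd44 and Fos nearly coincide, and Ctse and Ctsl stay below Slc43a1 and Hmcn1 on array 3.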

How the data were processed

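The authors deposited 1 log ratio per probe and array for 9596 probes on 3 arrays, with no missing value. The authors' deposited ratios, read here as log2, had been made from the Cy3 and Cy5 signals of each array per the labels. No source used here names the base, the background correction, the filter or the normalization. As log10 the lowest value, -9.40, would lie beyond a scanner's range, and as natural logarithms the folds would be larger. Spot intensities were not used, and dim spots therefore stayed in. Deposited medians were -0.004, -0.005 and -0.002.

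Values of arrays 1 and 2 were multiplied by -1 by the labelled dyes. Probes with 1 symbol in the platform annotation (7486) were averaged per symbol, and the 483 with several symbols and the 1627 with none stood alone, giving 8905 features. Entrez identifiers of 7395 probes matched RefSeq, which changed 0 symbols. limma 3.58.1 in R 4.3.3 (lmFit, eBayes, 1 coefficient) was fitted over all features, with two-sided p-values, Benjamini-Hochberg adjustment and a threshold of 0.05. The fit was tested on simulated ratios with independent noise and no dye effect, so that test does not cover dye differences between the arrays. Python 3.11.15 made the summaries. A dye term passed for 0 of the 8905 features (limma), and for 2161 of them by the unadjusted p. The count of 0 therefore does not show that dye effects were absent.

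The members, gene lists and tests were chosen with earlier results of these data known. Named are all cathepsins, up to 4 called genes of each list with the largest ratios or, with none called, the 2 with the largest moderated t, and the 2 genes nearest to each member with a ratio of at least 1 in size. Epcam, Foxn1 and Prss16 were added after their values were seen. Alternatives were leaving out each array, no turning of array 3, a dye term, scaling, centring, probe medians, probes with several symbols and robust shrinkage.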

Additional observations from a re-analysis of the deposited data

How the results depend on the processing

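Leaving out 1 array at a time gave ratios from 2.63 to 3.04 for Ctss, 1.91 to 2.20 for Ctsh, 0.46 to 0.57 for Ctsm, 0.36 to 0.62 for Ctsz, -0.13 to 0.26 for Ctsb, -0.52 to -0.41 for Ctsd, -2.90 to -2.31 for Ctsl and -3.16 to -2.72 for Ctse, so Ctsb alone of the 8 changed side. With array 3 left unturned the ratios were 1.23 for Ctss, 0.84 for Ctsh, 0.12 for Ctsm, 0.033 for Ctsz, -0.25 for Ctsd, -0.67 for Ctsl and -0.69 for Ctse, since turning sets the sign of that array. Over all features 368 were higher and 250 lower. Without an array these counts ran from 95 to 283 and from 24 to 409, with a dye term they were 562 and 514, and with array 3 unturned they were 0 and 0. Unturned, the counts of inhibitors, of other lysosomal genes in either direction and of MHC class II genes were 0 as well. Without an array the genes called higher numbered 0 to 1 for inhibitors, 0 to 2 for other lysosomal genes and 3 to 5 for MHC class II genes, and 0 to 1 other lysosomal genes were lower. With a dye term 2 genes of sorting and acidification were higher. A fit without an array has fewer residual degrees of freedom; the cause of the other shifts was not tested. Scaling, centring, probe medians, probes with several symbols and robust shrinkage left every one of these counts within 1.5 times its value. The first 4 of these and the dye term left each member's ratio within 1 SD, and robust shrinkage does not alter a ratio. Each array holds both RNAs and the ratio within it is the value tested, so the test was already paired by array and no further pairing was possible. The number of arrays and the lack of spot intensities limit what small ratios can show.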

Other observations

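Gla, the lysosomal α-galactosidase gene, singled out after its values were seen, had a mean log2 ratio of 2.87 ± 1.60 (SD, n = 3) from array values of 1.04, 3.98 and 3.59, higher than Ctss in the mean, and did not pass (limma adjusted p = 0.067). Among the placental cathepsins, which RefSeq (GRCm38.p6) places in a run of 7 neighbouring cathepsin genes on chromosome 13 that holds Ctsj, Ctsq and Ctsm, Ctsm lay above 0 and Ctsj below 0 on all 3 arrays, and Ctsq ran from -0.001 to 0.88. Ctsl lies on the same chromosome outside that run. Over all features 24.3% lay above 0 and 22.7% below 0 on every array. Spot intensities were not used, so whether the spots of Ctsm, Ctsj and Ctsq were dim is not known.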
